A study of Mus musculus with 16 samples.

Results

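The Id genes (Id1, Id2, Id3 and Id4) and the Hmga genes (Hmga1 and Hmga2) were followed through 16 arrays of primary mouse embryonic fibroblasts. The members were taken by gene symbol, and every probe set that the probe-to-gene table gave to one of the 6 symbols was used. The table gave 12 probe sets to 5 of the 6 genes, out of 34945 probe sets and 18193 genes with a single symbol. Hmga1 was named by no probe set of the table and was not analysed here. All 5 genes entered the 11481 genes tested, and 11 of their 12 probe sets passed the filter on low signal (a signal of at least 200 on at least 2 arrays).

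ID proteins are helix-loop-helix proteins without a DNA-binding region. They pair with E proteins, the ubiquitous basic helix-loop-helix (bHLH) factors, and keep these and their tissue-specific partners off DNA. Id1, Id2 and Id3 are known as direct targets of bone morphogenetic protein (BMP) signals carried by SMAD proteins, and all Id genes are associated with undifferentiated, proliferating cells. HMGA proteins bind AT-rich DNA through short AT-hook motifs and shape chromatin. Hmga2 is active in embryonic mesenchyme, falls during development, and is held down by the let-7 microRNAs.

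The cells were fibroblasts of embryonic day 14.5, infected with an adenovirus carrying Cre and expanded before treatment. The control class held a line with 1 conditional knockout allele of CBP (flox1) and a line with 1 such allele of p300 (flox2). In the triCH1 class, 3 of the 4 alleles of CBP and p300 lacked part of the CH1 domain, and the remaining allele was the conditional one, which was the CBP allele for triCH1flox1 and the p300 allele for triCH1flox2. All 4 lines thus carried a conditional allele and met Cre, the controls included. The sex of the lines differs with class, so triCH1 minus control values cannot separate genotype from sex. Each line received ethanol vehicle, trichostatin A (TSA, a histone deacetylase inhibitor, 100 ng/ml), dipyridyl (DP, an iron chelator that mimics hypoxia, 100 µM), or TSA followed by DP. For every array, the single-agent and vehicle ones included, the additions were 30 minutes apart and RNA was taken 3 hours after the last one. There was 1 array for each line and treatment, so the spread below is between lines that also differ in genotype, and the labels do not give the number of embryos per line.

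Median signals ranged over the arrays from 103.0 to 153.8, and the share of probe sets with a signal of 200 or more ranged from 36.8% to 42.6%. Of 12 fibroblast markers, 11 reached 200 on all arrays, and 12 of 42 markers of other cell types had medians of at least 200. The highest of these were Acta1 (muscle actin, median 6545), Nes (neural, 929.9), Col2a1 (cartilage, 674.5), Fabp4 (adipocyte, 618.1) and Epcam (epithelium, 434.3), while the muscle factors Myod1 and Myog, the neural Gfap and all 5 endothelial markers had medians under 200. The summed signal of the 7 muscle markers ran from 5441 to 7959 under vehicle and from 7045 to 10582 under TSA, which overlap. Acta1 makes up most of this sum, since the other muscle markers had medians from 20.6 to 207.9. The part of such cells in the results was not tested. The flox1 vehicle array stood apart, with a Gapdh 3'/5' signal ratio of 2.59 against 0.907 to 1.26 on the others. The mean 18S ribosomal signal was 9280 on that array and 8257 on the flox2 DP array, against 1043 to 3713 on the rest. DP raised Bnip3, a hypoxia-inducible mitophagy gene, 10.5-fold (log2 change 3.40, SE 0.0848, adjusted p = 8.83e-14, limma, n = 4 lines). Cdkn1a, the cell cycle inhibitor p21 and a common target of deacetylase inhibitors, was read as a check of TSA. It did not rise but fell by 0.28 on the log2 scale with TSA (SE 0.0943, adjusted p = 0.0340, limma). Its other probe set had a change of 0.09 and did not pass (adjusted p = 0.792, limma), so neither set was called higher.

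The promoters of Id3 and Hmga2 are shown because these members fell with TSA, and that of Id2 is shown for an Id gene that did not pass the test. Id3 lies on chr4:136143822-136145392, Hmga2 on chr10:120361268-120476469 and Id2 on chr12:25093799-25096092 (GRCm38.p6, RefSeq). Each sequence runs 5′ to 3′ from 250 bases before to 50 after the RefSeq start, and capitals mark the GC box GGGCGG or its complement CCGCCC, the site of SP-family factors.
Id3 promoter (chr4:136143572-136143871, plus strand): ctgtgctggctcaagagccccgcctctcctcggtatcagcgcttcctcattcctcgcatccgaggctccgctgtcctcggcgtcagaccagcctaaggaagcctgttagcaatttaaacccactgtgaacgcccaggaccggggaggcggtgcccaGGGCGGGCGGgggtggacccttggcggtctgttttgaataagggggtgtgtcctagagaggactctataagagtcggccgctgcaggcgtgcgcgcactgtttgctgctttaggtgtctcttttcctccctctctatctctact
Hmga2 promoter (chr10:120476420-120476719, minus strand): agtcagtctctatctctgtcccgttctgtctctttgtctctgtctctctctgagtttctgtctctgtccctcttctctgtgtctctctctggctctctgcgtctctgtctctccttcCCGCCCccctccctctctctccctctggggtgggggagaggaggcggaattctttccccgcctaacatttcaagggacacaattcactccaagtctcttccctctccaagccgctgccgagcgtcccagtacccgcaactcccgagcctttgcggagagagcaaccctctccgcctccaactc
Id2 promoter (chr12:25096043-25096342, minus strand): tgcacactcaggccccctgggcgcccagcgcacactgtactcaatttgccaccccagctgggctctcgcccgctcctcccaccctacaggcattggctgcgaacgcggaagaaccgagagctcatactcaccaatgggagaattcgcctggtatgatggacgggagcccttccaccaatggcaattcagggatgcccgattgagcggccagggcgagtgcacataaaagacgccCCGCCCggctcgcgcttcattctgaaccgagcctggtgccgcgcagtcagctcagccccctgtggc

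The table held a promoter for 5 of the 6 members. The GC box was found 2 times in the Id3 promoter (overlapping), 1 time in that of Hmga2, 1 time in that of Id2 and 5 times in that of Id4, and 35.7% of the 32851 promoters of the table held it. The CCAAT box (CCAAT or its complement) was found 3 times in the Id2 promoter, 2 times in that of Id4 and 0 times in those of Id3 and Hmga2, against 37.4% of all promoters with a match. The GC-rich SMAD element GGCGCC was found 1 time each in the Id2 and Id4 promoters and 0 times in those of Id3 and Hmga2 (11.9% of all promoters). The hypoxia response core ACGTG was in 0 of these 4 promoters (19.6% of all), and GCGTG was 1 time in that of Id3 (32.4% of all). The E-box CANNTG, where bHLH dimers bind, was found 1 time in the Id2 promoter and 0 times in those of Id3, Id4 and Hmga2, while 72.3% of all promoters held it. GC content was 60.0% for Id3, 57.7% for Hmga2, 63.3% for Id2 and 73.3% for Id4, against a median of 52.7%. Both strands were searched in every case, and a match describes letters, not binding.

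Hmga2 and Id3 fell with TSA, and Id1, Id2 and Id4 did not pass the test (adjusted p under 0.05). Hmga2 was 2.37-fold lower and Id3 1.63-fold lower over the 4 lines. Among all 11481 genes, 12.4% fell and 15.7% rose with TSA, so a fall in 2 of the 5 tested members is set against a treatment that changed many genes. RNA came from whole cultures, in which fewer cells of a type and less RNA per cell cannot be told apart.

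**Figure D1:**
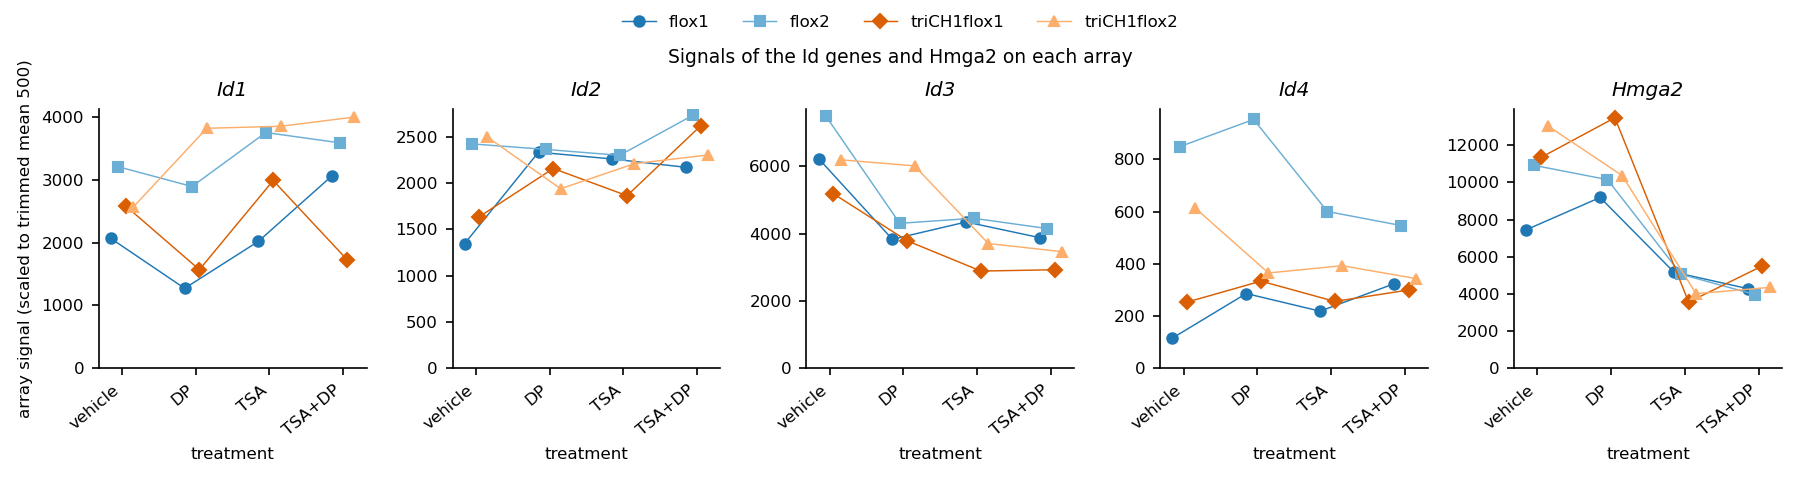
Array signal (linear scale, each array scaled to a trimmed mean of 500) of Id1, Id2, Id3, Id4 and Hmga2 under vehicle, DP, TSA and TSA+DP, with 1 point per array and a line joining the arrays of each cell line. Hmga2 lies between 7453 and 13494 without TSA and between 3548 and 5503 with it, in all 4 lines; the panels have different scales and are not to be compared with each other.

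Hmga2 signals under vehicle were 7453 in flox1, 10928 in flox2, 11353 in triCH1flox1 and 13029 in triCH1flox2. Under TSA they were 5165, 5042, 3548 and 4004 in the same order. Every TSA array was below every vehicle array. The log2 change was -1.25 (SE 0.116, adjusted p = 1.01e-06, limma, n = 4 lines), which was the 124th lowest of the 11481 changes. In the presence of DP the fall was of similar size. Hmga2 signals under DP were 9191 in flox1, 10154 in flox2, 13494 in triCH1flox1 and 10370 in triCH1flox2, and under TSA+DP they were 4276, 3956, 5503 and 4342. Again the groups did not overlap, and the log2 change was -1.24 (SE 0.116, 2.37-fold, adjusted p = 9.47e-07, limma). In this second comparison, TSA+DP minus DP, 12.2% of all genes fell and 17.7% rose, and Hmga2 and Id3 were again the members that fell.

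The levels of Hmga2 thus formed an upper pair, DP (mean 10802 ± 1866, SD, n = 4) and vehicle (10691 ± 2342), and a lower pair, TSA+DP (4519 ± 677) and TSA (4440 ± 791). Within each pair the treatments differed by less than the spread between lines: the DP change was 0.03 without TSA (95% interval ± 0.245, adjusted p = 0.945, limma) and 0.03 with it (± 0.245, adjusted p = 0.991, limma). Without the flox1 vehicle array the TSA change of Hmga2 was -1.38 (adjusted p = 6.84e-07, limma). The array barcodes fall into 2 number series, of 12 and 4 arrays, and on the larger series alone the change was -1.25 (adjusted p = 0.000453, limma).

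The other Hmga2 probe sets were compared with the one used. When every passing probe set was tested as its own feature (19895 sets), the TSA change was -1.25 for 1422851_at, -1.12 for 1450780_s_at and -1.17 for 1450781_at, with adjusted p from 3.51e-06 to 1.38e-05 (limma). With DP present the changes were -1.24, -1.26 and -1.53 in that order, with adjusted p from 1.16e-06 to 3.59e-06 (limma). The fourth set, 1446196_at, was dim: its signals ran from 443.2 to 770.2 under vehicle and from 41.7 to 216.7 under TSA. It reached 200 on 1 of the 8 arrays with TSA, so it passed the filter through the arrays without TSA, and its values are shown but not counted with the others. The sets 1422851_at, 1450780_s_at and 1450781_at were designed on the same transcript record, so they are not independent measurements of different transcripts.

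**Figure D2:**
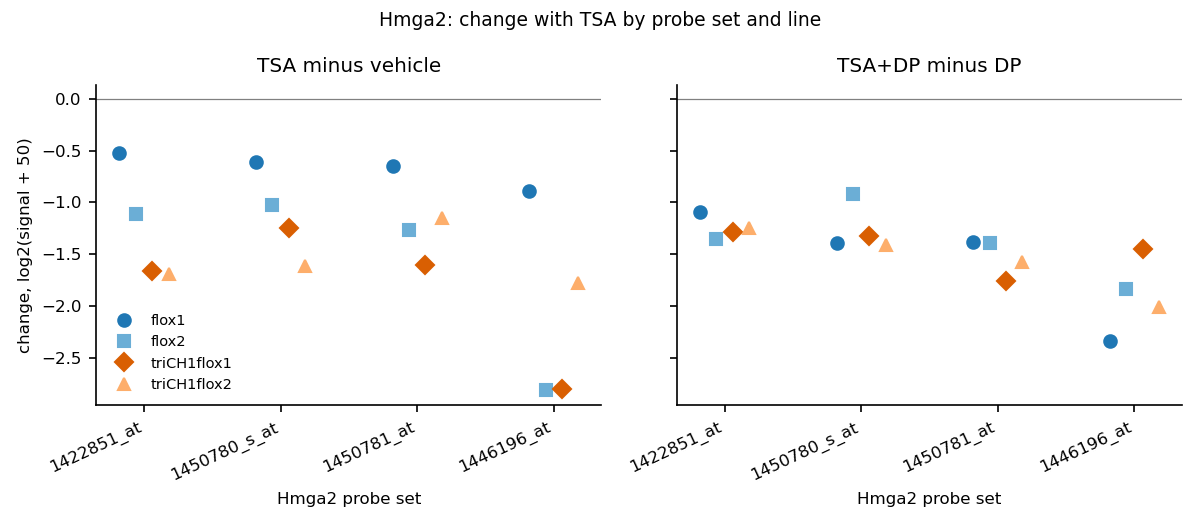
Log2(signal + 50) change of the 4 Hmga2 probe sets with TSA in the absence of DP (left) and in its presence (right), with 1 point per cell line. All 32 points lie below 0, where those of 1446196_at, which is dim under TSA, give no reliable size; with TSA alone the flox1 line has the smallest fall for each of the 4 sets, from -0.52 to -0.89.

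Hmga2 fell by 0.52 in flox1, 1.11 in flox2, 1.66 in triCH1flox1 and 1.69 in triCH1flox2 on the log2 scale with TSA alone. On this set, 1422851_at, both triCH1 lines fell further than both control lines, by a mean difference of -0.86 (SE 0.231, unadjusted p = 0.00179), but this did not pass the adjustment over all genes (adjusted p = 0.808, limma). The order did not hold for each probe set: on 1450780_s_at the difference was -0.61 with both triCH1 lines lower, but on 1450781_at it was -0.42, with -1.15 in triCH1flox2 against -1.26 in flox2. Of all genes 0% passed in that class comparison, with 657 of the 11481 at an unadjusted p under 0.05 in limma. The difference rested in part on the flox1 vehicle array: without it the value was -0.59 (adjusted p = 1.00, limma), and the part of that array's 3'/5' ratio in the difference was not tested. With DP present the 4 falls were close, 1.09 in flox1, 1.35 in flox2, 1.29 in triCH1flox1 and 1.25 in triCH1flox2.

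Id3 fell with TSA, and it was the only tested member that fell with DP. Id3 signals under vehicle were 6235 in flox1, 7496 in flox2, 5188 in triCH1flox1 and 6198 in triCH1flox2. Under TSA they were 4347, 4457, 2884 and 3705, all below the lowest vehicle value. The log2 change was -0.71 (SE 0.0899, adjusted p = 2.16e-05, limma, n = 4 lines), and the 4 lines lay between -0.84 and -0.52. Without the flox1 vehicle array the change was -0.75 (adjusted p = 5.59e-05, limma).

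Under DP the Id3 signals were 3831 in flox1, 4306 in flox2, 3787 in triCH1flox1 and 6018 in triCH1flox2. The first 3 were below every vehicle value, and triCH1flox2 lay within the vehicle range. Over 4 lines the log2 change was -0.49 (SE 0.0899, 1.41-fold lower, adjusted p = 0.00478, limma). DP lowered 0.27% of all genes in this comparison, 31 of 11481, and Id3 was 1 of them. In the control lines alone the change was -0.74 (SE 0.127, 1.67-fold lower, adjusted p = 0.00341, limma), where 0.331% of genes fell. In the triCH1 lines it was -0.25 (SE 0.127, adjusted p = 1.00, limma), in a comparison with 0.575% of genes called, and 0 of the 5 tested members passed there.

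The DP call of Id3 was near the limit of this design. Over 4 lines the adjusted p rose to 0.0787 without flox1, 0.0665 without flox2 and 0.107 without triCH1flox1 (limma), and in the control lines it was 0.154 on flox2 alone and 0.0910 on flox1 alone, where the lone line is assumed to vary like the others. A fit without the line term, that is with no replicate block, gave adjusted p = 0.154 over 4 lines and 0.120 in the control lines (limma). It was 0.265 over 4 lines on the larger array series alone, with a change of -0.39. Without the flox2 DP array, which had the high 18S signal, the change over 4 lines was -0.50 (adjusted p = 0.0318, limma), and without the flox1 vehicle array -0.54 (adjusted p = 0.00736, limma).

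By line, the DP change of Id3 was -0.70 in flox1, -0.79 in flox2, -0.45 in triCH1flox1 and -0.04 in triCH1flox2. The triCH1 minus control difference was 0.50 (95% interval ± 0.380, unadjusted p = 0.0134) and did not pass the adjustment over all genes (adjusted p = 0.978, limma), where 0.0261% of genes did. For the other 4 members these differences were -0.14 for Hmga2, 0.35 for Id1, -0.35 for Id2 and -0.76 for Id4, each with a 95% interval that includes 0. A difference between the classes in the response of these genes to DP was therefore not shown, and intervals of this width do not show that they respond alike.

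**Figure D3:**
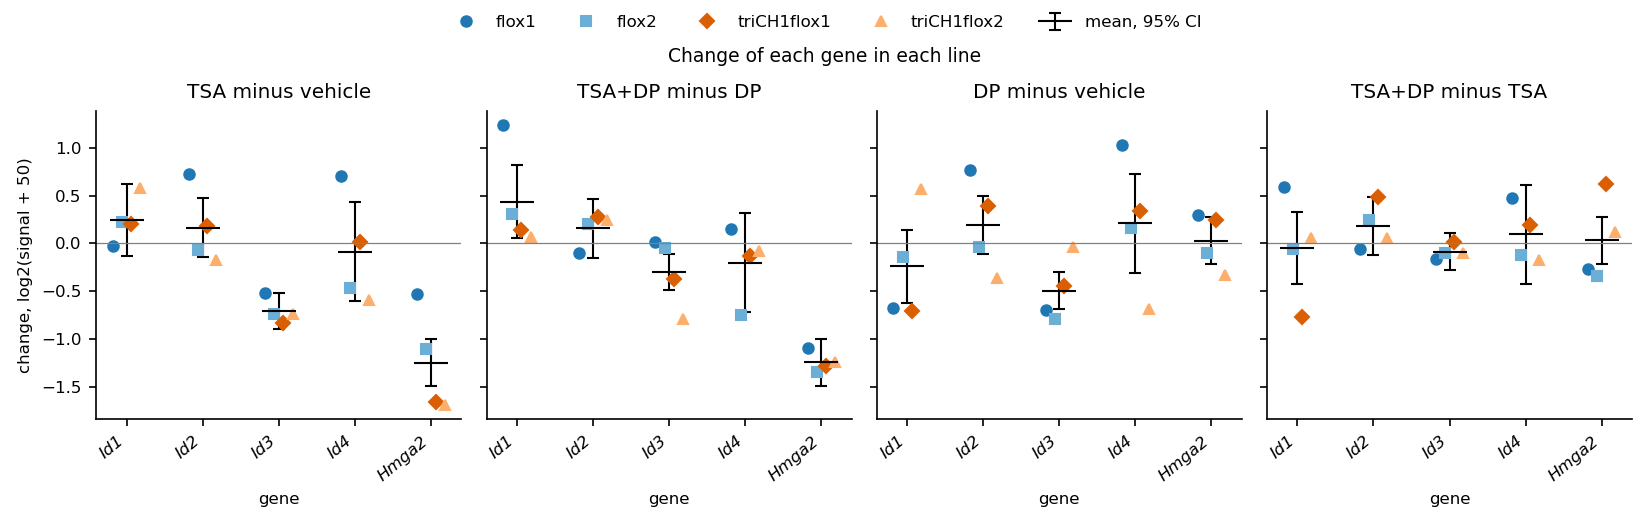
Log2(signal + 50) changes of the 5 measured genes in 4 comparisons, with 1 point per cell line and a bar for the fitted mean over 4 lines with its 95% interval. The interval lies below 0 for Hmga2 and Id3 with TSA, in the absence and the presence of DP, and for Id3 with DP. It lies above 0 for Id1 in TSA+DP minus DP (0.057 to 0.818), which did not pass the adjustment over all genes. The comparisons share arrays (vehicle, DP or TSA), so the panels are not independent.

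When cells had both agents, Id3 was no lower than with TSA alone beyond the spread. Id3 signals under TSA+DP were 3878 in flox1, 4150 in flox2, 2923 in triCH1flox1 and 3462 in triCH1flox2, which overlap the TSA values. The change of TSA+DP minus TSA was -0.09 (95% interval ± 0.190, adjusted p = 0.980, limma), and in this comparison, where 0.148% of genes were called, 0 of the 5 members passed. Relative to DP alone, TSA+DP lowered Id3 by a log2 change of -0.30 (SE 0.0899, 1.23-fold lower, adjusted p = 0.0189, limma). That fall was -0.79 in triCH1flox2 and -0.37 in triCH1flox1 but -0.05 in flox2 and 0.02 in flox1. The groups overlapped, and the call was lost (adjusted p = 0.226, limma) without triCH1flox2. It was also lost without flox1 (0.0796), without flox2 (0.116), without the flox2 DP array (0.0656) and with no replicate block (0.136), all by limma.

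The order of the Id3 means was vehicle (6279 ± 945, SD, n = 4), DP (4486 ± 1048), TSA (3848 ± 723) and TSA+DP (3603 ± 534). Vehicle had the highest mean, the DP values overlapped those of both neighbours in this order, and TSA and TSA+DP did not differ beyond their spread. The departure from additivity, the TSA change with DP minus that without, was 0.41 for Id3 (SE 0.127, unadjusted p = 0.00522, adjusted p = 0.421, limma) and 0.00 for Hmga2 (95% interval ± 0.346). It did not pass for any of the 5 members, while 0.401% of all genes passed. These comparisons share the vehicle, DP and TSA arrays and are given side by side for that reason.

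Id1, a member known for its response to BMP, did not pass in any comparison. Id1 signals were 2066 in flox1, 3210 in flox2, 2586 in triCH1flox1 and 2562 in triCH1flox2 under vehicle. Under TSA they were 2019, 3756, 2991 and 3856, under DP 1270, 2895, 1567 and 3824, and under TSA+DP 3068, 3592, 1729 and 4003. The treatment groups overlapped throughout. The TSA change was 0.24 (SE 0.180, adjusted p = 0.346, limma) and the DP change -0.24 (SE 0.180, adjusted p = 0.636, limma), the latter from -0.70 in triCH1flox1 to 0.57 in triCH1flox2. TSA+DP minus DP gave 0.44 (SE 0.180, adjusted p = 0.0790, limma), positive in 4 of 4 lines but 1.24 in flox1 and 0.07 to 0.31 in the others.

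That last value of Id1 moved across the threshold with the arrays used. It passed with the barcode series as a block (0.64, adjusted p = 0.00435, limma), on the larger series alone (0.59, adjusted p = 0.0411), without flox2 (0.67, adjusted p = 0.0431) and without the flox2 DP array (0.58, adjusted p = 0.0498). With the series as a block, TSA minus vehicle also passed for Id1 (0.45, adjusted p = 0.0351, limma). Of the 4 arrays of the smaller series, 3 are from triCH1flox1 and 1 is from flox2.

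Id2 did not pass in any comparison by either passing probe set, though one of them was higher with TSA in each line. On the set used (1435176_a_at), Id2 signals ran from 1347 to 2505 under vehicle, 1866 to 2303 under TSA, 1941 to 2367 under DP and 2173 to 2741 under TSA+DP. The lowest array was the flox1 vehicle array. The TSA change was 0.16 (SE 0.145, adjusted p = 0.437, limma) and the DP change 0.19 (SE 0.145, adjusted p = 0.642, limma). The set 1422537_a_at had 387.4, 698.9, 521.8 and 638.2 under vehicle and 779.9, 938.1, 737.6 and 751.1 under TSA, in the order flox1, flox2, triCH1flox1 and triCH1flox2. Its TSA change was 0.50 (adjusted p = 0.0559, limma, over 19895 sets), so the TSA values do not overlap the vehicle values although the test was not passed. The third set, 1453596_at, reached 200 on 1 array.

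Id4 was near the lower limit of detection in part of the arrays. On 1423259_at its signals under vehicle were 114.5 in flox1, 849.1 in flox2, 252.6 in triCH1flox1 and 615.5 in triCH1flox2. Under TSA they ran from 217.7 to 600.1, under DP from 285.3 to 953.5 and under TSA+DP from 298.9 to 546.3. The flox2 line was highest under each treatment, and the treatment groups overlapped. The TSA change was -0.09 (SE 0.244, adjusted p = 0.836, limma) and the DP change 0.21 (SE 0.244, adjusted p = 0.789, limma). The 3 Id4 sets did not share a direction with TSA: the value was 0.10 for 1423260_at and 0.64 for 1450928_at (adjusted p = 0.152, limma).

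Between the classes, compared on the means of the 4 arrays of each line (2 lines against 2), 0 of the 5 members passed, and 0.157% of all genes did. The triCH1 minus control values were 0.13 for Hmga2, -0.20 for Id3, 0.08 for Id1, -0.05 for Id2 and -0.21 for Id4, each with a 95% interval that includes 0. Sex differs with class here too, and its part in these values was not tested.

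The genes whose values followed each member most closely over the 16 arrays were listed by Pearson's r of log2(signal + 50). For Hmga2 they were Zranb2 (0.976), Fgf7 (0.972) and Ppp4r2 (0.970). For Id3 they were Lrrc42 (0.894), Snai1 (0.877) and E130309D02Rik (0.867). For Id1 they were Idh2 (0.888), Nup93 (0.886) and Cebpb (0.883), for Id2 Dag1 (0.892), Nid2 (0.854) and Adam9 (0.848), and for Id4 Thbd (0.899), Vegfd (0.889) and Cdsn (0.862). Among the members, r was 0.616 for Id3 with Hmga2, 0.673 for Id2 with Id4, and 0.153 for Id1 with Id3. The 16 arrays share lines and treatments, so these values are descriptions.

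Partners and upstream genes of the ID proteins, and let-7 pathway, high mobility group and cell cycle genes, were read from 11 gene lists. They held 86 genes that were tested, of which 32 (37.2%) fell and 7 (8.14%) rose with TSA, against 12.4% and 15.7% of all genes. The lists were chosen with earlier results of these data known, so these shares are descriptions and no independent support. Of the 3 E proteins, Tcf4 (log2 change -0.46, adjusted p = 0.00331) and Tcf12 (-0.27, adjusted p = 0.0490) fell with TSA and 1 did not pass (limma). The median of the 3 was -0.27 against 0.03 for all genes. Of 13 tissue-specific bHLH factors 3 were tested, and all 3 fell with TSA: Twist1, a mesenchymal factor, by -1.30 (2.47-fold, adjusted p = 2.64e-06), Hand2 by -0.88 (adjusted p = 0.00213) and Twist2 by -0.65 (adjusted p = 0.00146, limma). Twist1 signals ran from 1643.9 to 1831 under vehicle and from 563.1 to 827.8 under TSA. In all 17 other settings 3 genes of this list were counted as lower. With no filter on signal these were 3 of 12 tested, and the list median was 0.000314 instead of -0.88. In TSA+DP minus DP, 2 of the 3 genes were lower, and 1 to 2 in the other settings. In TSA+DP minus DP, Tcf12 passed and Tcf4 did not. Leaving out any 1 of the 4 lines, the flox1 vehicle array or the flox2 DP array left 1 of the 3 E proteins called with TSA. The count was also 1 with no filter on signal, quantile normalization, averaged probe sets, no replicate block or no variance trend. With every passing probe set as its own feature, the Tcf12 set used did not pass with TSA (adjusted p = 0.0642, limma). Its other sets ran from -0.61 to 0.39 and did not pass.

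Among 5 tested HES and HEY repressors, Hey1, a Notch and BMP target, rose with TSA by 0.86 (adjusted p = 0.00514) and Bhlhe40, a hypoxia-inducible bHLH repressor, fell by -1.26 (adjusted p = 1.69e-05, limma). The TSA shares, 20% higher and 20% lower, are near the 15.7% and 12.4% of all genes, so the counts are no result about the list. Hey1 was not called without flox1, without triCH1flox1 or on the larger array series alone. DP raised Bhlhe40 by 1.89 (3.72-fold, adjusted p = 6.51e-07), in the control lines by 2.66 (adjusted p = 1.07e-06), in the triCH1 lines by 1.13 (adjusted p = 0.0197) and in the presence of TSA by 1.39 (adjusted p = 0.000137, limma). Its class difference did not pass (-1.52, adjusted p = 0.183, limma). Bhlhe40 and Cdkn1a (0.52, adjusted p = 0.00474, limma) were the 2 of 86 listed genes that passed with DP over 4 lines. Both rose, and this share (2.33%) is near the 1.43% of all genes that rose with DP.

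The SMAD proteins and their cofactors carry BMP and TGF-beta signals to the genome. Of 14 tested, 9 fell and 1 rose with TSA, where 12.4% of all genes fell, with a list median of -0.46 against 0.03 for all genes. The BMP-activated Smad1 fell by -1.10 (2.14-fold, adjusted p = 6.40e-06), from signals of 1796.6 to 2321.4 under vehicle to 767.3 to 987.3 under TSA. Smad4, the common partner, fell by -0.66 (adjusted p = 4.24e-05), Smad5, also BMP-activated, by -0.72 (adjusted p = 0.000746) and the inhibitory Smad7 by -0.72 (adjusted p = 0.00128, limma). Ski, a corepressor, rose by 0.40 (adjusted p = 0.0147, limma). With DP present the counts were again 9 lower and 1 higher, and the median was -0.50, although 4 were lower there on the larger array series alone.

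The count of 9 fell to 4 without flox2 and on the larger array series alone, to 5 without triCH1flox1 and to 8 without the flox1 vehicle array. It was 6 with the series as a block and when the passing probe sets of a gene were averaged. The other passing probe sets of Smad1, Smad4, Smad5 and Smad7 had negative TSA values too, but a second set of Smurf1, 1 of the 9, had a value of 0.78 (adjusted p = 0.324, limma).

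The list of ligands and related secreted proteins had 7 tested genes: Bmp4, Bmp5, Bmp8a and Gdf2, the activin subunits Inhba and Inhbb, and Bmp1, which is a procollagen protease and not a BMP. Inhba fell with TSA by -0.89 (adjusted p = 4.25e-06, limma), and 6 did not pass, among them all 4 BMP and GDF ligands. The share called lower, 14.3%, is near the 12.4% of all genes. A second gene of this list was called lower without flox2 or without triCH1flox2. The same count of 2 came with a pseudocount of 200 and with quantile normalization. It also came with averaged probe sets and with a filter of 200 on at least 8 arrays. Of 12 receptors, 3 rose and 2 fell with TSA: Tgfbr1 (0.52), Acvr1b (0.55) and Tgfbr3 (0.46) were higher, and Bmpr2, the type II BMP receptor, fell by -0.39 and Tgfbr2 by -0.36. These shares, 25% and 16.7%, are near those of all genes (15.7% higher and 12.4% lower), so the counts are no result about the receptors. Receptor calls were not stable, with 0 higher without flox1, 1 higher without the flox1 vehicle array, 1 higher without triCH1flox2, and 0 lower without flox2 or without triCH1flox2. Of 10 antagonists, Fst (follistatin, an activin antagonist) fell by -1.23 (2.34-fold, adjusted p = 2.86e-06) and Grem1 (a BMP antagonist) by -0.86 (adjusted p = 0.00189, limma). Both counts, of 2 lower and 0 higher, held in 17 other settings. The antagonist shares were 20% lower and 0% higher, against 12.4% and 15.7% of all genes, and so few genes give no result about the list. Of 9 other genes known to rise with BMP signals, 3 were called lower with TSA (Atoh8, Dlx2 at -0.68 and Smad7) and Hey1 rose, with 5 not passing and a median of 0.06. The shares were 33.3% lower and 11.1% higher, against 12.4% and 15.7% of all genes, and so few genes give no result about the list. Smad7 and Hey1 are also counted in the lists above. Atoh8 was dim, from 102.2 to 539.7 under vehicle and 30.9 to 99.7 under TSA, so it passed the filter only through arrays where it was high and its size of change is not given. With a filter of 200 on at least 8 arrays, 7 genes of this list were tested and 2 were lower. That count of 3 lower was 2 without flox1, flox2, triCH1flox1 or the flox1 vehicle array, and 1 without triCH1flox2.

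**Figure D4:**
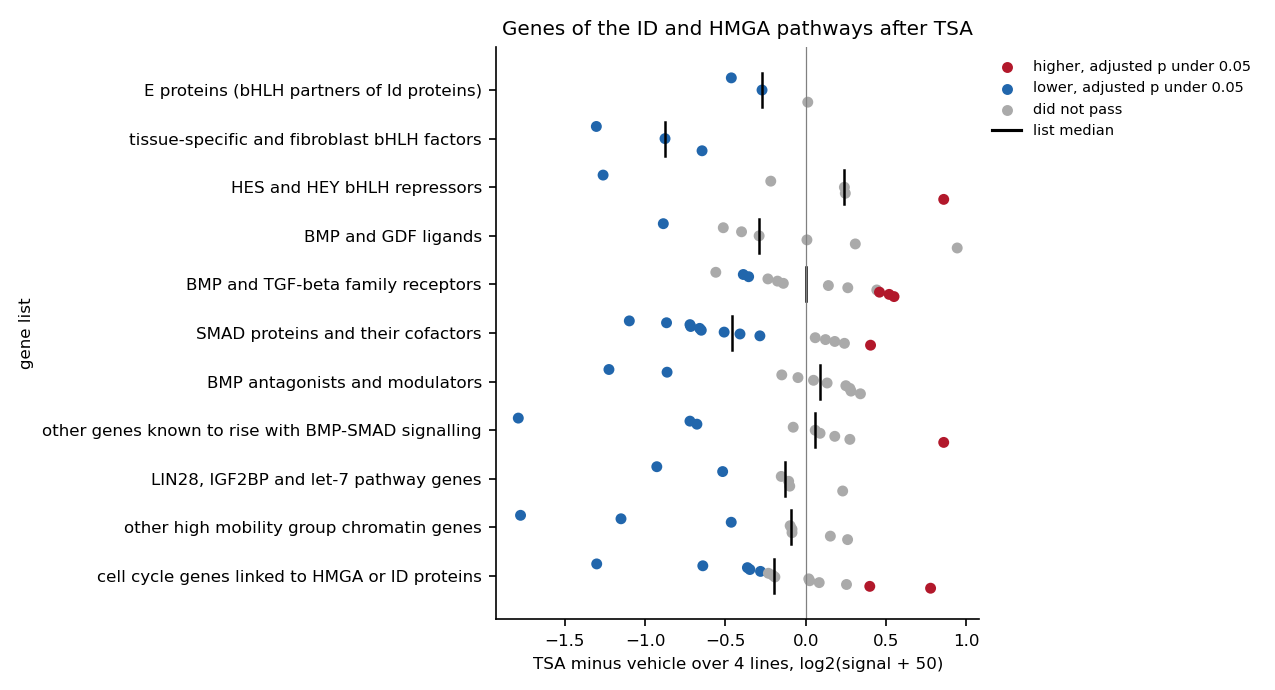
Log2(signal + 50) change with TSA over 4 lines for each tested gene of the 11 lists, coloured by the call at adjusted p under 0.05 (limma), with a black bar at each list's median. The SMAD list has 9 of 14 genes lower and a median of -0.46, whereas the receptors lie on both sides of 0.

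For the setting of Hmga2, 6 genes of the let-7, LIN28 and IGF2BP pathway were tested. Igf2bp1, an RNA-binding protein of embryonic cells, fell with TSA by -0.93 (1.90-fold, adjusted p = 0.000637), Dicer1, which cuts microRNA precursors, fell by -0.52 (adjusted p = 0.0159, limma), and 4 did not pass. A second Dicer1 set had a value of -0.23 (adjusted p = 0.398, limma). The other Igf2bp1 sets ran from -0.96 to -0.30, and not all passed. The share lower, 33.3% of 6 genes, stands against 12.4% of all genes, and so few genes give no result about the list. The count of 2 was 1 without flox1, triCH1flox2 or the flox1 vehicle array, and 3 without flox2. Of 8 other high mobility group genes, 3 fell: Hmgb2, a chromatin protein of proliferating cells, by -1.78 (3.43-fold, adjusted p = 9.77e-07), Hmgxb4 by -1.15 (adjusted p = 0.00104) and Hmgxb3 by -0.46 (adjusted p = 0.0365, limma). Hmgb2 signals ran from 1833.1 to 2768.5 under vehicle and from 532.4 to 923.1 under TSA, without overlap. The second Hmgb2 set fell by -2.16, while a second Hmgxb3 set had a value of 0.10 and did not pass. The other Hmgxb4 sets had values of -0.71 and -0.32 and did not pass. The share of these genes called lower was 37.5%, against 12.4% of all genes, and again rests on few genes. The count was 2 without flox1, flox2, triCH1flox2 or the flox1 vehicle array.

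Of 14 cell cycle genes linked to HMGA or ID proteins, 5 fell and 2 rose with TSA, and the median was -0.20. The share that fell was 35.7%, against 12.4% of all genes, and the share that rose was 14.3%, near the 15.7% of all genes. Myc, a growth-promoting bHLH factor, fell by -1.30 (2.47-fold, adjusted p = 8.70e-05), Cdkn2b, an inhibitor of CDK4 and CDK6, by -0.64 (adjusted p = 0.000250) and Ccna2, cyclin A2, by -0.36 (adjusted p = 0.00503), whereas Rb1, the pocket protein that ID2 binds, rose by 0.78 (adjusted p = 0.000523, limma). The 5 fallen genes were thus the inhibitors Cdkn2b and Cdkn1a beside Myc, cyclin A2 and cyclin D1 (Ccnd1, -0.35, adjusted p = 0.0435, limma). For Cdkn1a this rests on the set used (-0.28), since its other set had a change of 0.09 and did not pass. The count of 5 lower was 3 without flox1, triCH1flox1 or the flox1 vehicle array, and 2 with no replicate block or on the larger array series alone. The count of 2 higher was 1 when any 1 of the 4 lines was left out. With DP present, TSA+DP minus DP called 5 of the 14 cell cycle genes and 2 of the 8 other high mobility group genes lower, where 12.2% of all genes were, with Hmgb2 at -1.66 (adjusted p = 1.83e-06, limma). That cell cycle count was 3 without flox1 or without triCH1flox1 and 1 on the larger array series alone. That high mobility group count was 1 without triCH1flox2 and on the larger array series alone.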

How the data were processed

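Total RNA of 16 cultures was measured on Affymetrix Mouse430_2 arrays. Per the labels, the authors' deposited intensities came from the Affymetrix statistical algorithm and were scaled array by array to a target of 500, so a change common to most transcripts is not seen. The software version is not given in the sources used here.

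Of 45101 probe sets, 34945 had a single gene symbol, 932 several, 9160 none, and 64 were controls. Values were analysed as log2(signal + 50). Of 19895 probe sets with a signal of at least 200 on at least 2 arrays, the one with the highest mean stood for its gene (11481 genes). limma 3.58.1 (R 4.3.3) fitted 8 group means with a line term in each class (6 residual degrees of freedom), with variances following a trend in mean signal. P values were adjusted by Benjamini and Hochberg over all genes, with a threshold of 0.05. For the treatment comparisons they measure only how far the changes differ between the lines of a class. The level differences between lines are removed by the line term. The class comparison on line means uses the spread in level between lines. Each gene's variance was moderated toward those of the other genes, with 10.5 prior degrees of freedom beside the 6 residual ones. The line term pairs the arrays because the same line received every treatment: correlations of deviations between arrays of a line were 0.161 to 0.326 (control) and 0.0755 to 0.318 (triCH1). Scripts were tested on simulated data. Fold changes are on the log2(signal + 50) scale and understate those of low signals. Figures were made with Python 3.11.15 and matplotlib 3.10.9.

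The text names all members, up to 4 called genes per list with the smallest adjusted p with TSA, listed genes past the threshold with DP, and the 3 genes most correlated with each member. Genes named beside a count of 5 or fewer, and Smurf1 and Ski, were chosen after their values were seen. The members and gene lists were chosen with earlier results of these data known. Promoters are from RefSeq (GRCm38.p6). Alternatives covered the pseudocount, the filter, quantile normalization, the choice of probe set, the line and variance terms, the barcode series and leaving out lines or arrays; the counts of listed genes under these were added after seeing the data.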

Additional observations from a re-analysis of the deposited data

How the results depend on the processing

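Of 800 alternative values of single genes, 777 kept their direction and side of the threshold or were uncalled in both fits, 18 lost the call, 5 gained it and 0 reversed a call; 73 uncalled values changed sign. The falls of Hmga2 (-1.40 to -1.10) and Id3 (-0.76 to -0.65) with TSA passed in 17 of 17 alternatives, and that of Hmga2 in TSA+DP minus DP in 17 of 17. The fall of Id3 passed in 9 of 17 alternatives in TSA+DP minus DP (adjusted p 0.0141 to 0.226), in 11 of 17 with DP over 4 lines (0.0045 to 0.265) and in 13 of 17 with DP in the control lines (0.0031 to 0.154), by limma.

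With no replicate block, the count of members called was 1 in TSA+DP minus DP, 0 with DP over 4 lines and 0 with DP in the control lines; it changed no other call of a member. With no variance trend the counts were likewise 1, 0 and 0, and on the larger array series alone the count with DP over 4 lines was 0. Leaving out 1 line at a time, it was 1 to 2, 0 to 1 and 0 to 1 in those 3 comparisons. In TSA+DP minus DP, the 2 members called were Hmga2 and Id1 in place of Id3 with the series as a block, on the larger series alone, without flox2 and without the flox2 DP array. The cause of these changes was not tested. The precision is limited by 2 lines per class and 1 array per line and treatment, and for Id4 by signals near 200.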
